A study of Arabidopsis thaliana with 6 samples.

Results

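The transcripts of 10 enzymes and partner proteins that write, copy or remove DNA methylation were followed in quiescent centre (QC) cells of the *Arabidopsis* root. The genes were chosen by name and identifier: MET1, CMT2, CMT3, DRM2, DDM1, KYP, VIM1, VIM3, ROS1 and DME, which are 10 of the 37336 genes in the deposited tables. The study compared 3 WT libraries with 3 *bravo-2* libraries, all from seedlings 5 days old in the Col-0 background, in which GFP driven by the WOX5 promoter marked the cells that were sorted from root protoplasts. BRAVO is a MYB transcription factor that restrains QC divisions, and *bravo-2* is a mutant of it. Both genotypes carried the reporter, so that the mutant allele is the labelled difference between them. Libraries were made with a SMART-Seq kit for very small RNA amounts, which amplifies cDNA and does not mark strand.

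Cytosine methylation in plants occurs in 3 sequence contexts, each kept up by its own enzymes. After replication, VIM proteins recognise half-methylated CG sites and MET1 restores the missing methyl group. CMT2 and CMT3 methylate non-CG sites in chromatin where KYP has methylated histone H3, DRM2 is directed to its targets by small RNAs, and the remodeller DDM1 opens packed chromatin to the methyltransferases. ROS1 and DME are glycosylases that cut methylated cytosine out of DNA, ROS1 widely in the plant body and DME best known from the central cell of the female gametophyte. Because methylation must be copied each time DNA is replicated, several of these genes are known to be transcribed most in dividing cells.

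The libraries held between 10990217 and 14425249 estimated counts, and 3 counts, the smallest number taken as shown, corresponded to between 0.208 and 0.273 CPM (counts scaled to a common library size). Levels below are CPM scaled by the TMM method unless TPM, which also divides by transcript length, is named. The QC marker WOX5 was present in every library but ranged widely, at 80.8, 262 and 375 CPM in WT (replicates 1 to 3) against 447, 120 and 97.1 CPM in *bravo-2* (replicates 1 to 3). Markers of other root cells were also present. The summed level of 6 root hair genes was 12.5 CPM in *bravo-2* replicate 1 and between 1386 and 4790 CPM in the other libraries, and the summed level of 3 endodermis genes was between 8.39 and 13.1 CPM in WT replicate 2 and *bravo-2* replicates 1 and 2 and between 118 and 135 CPM in the rest. The summed level of 4 root cap genes was between 63.9 and 159 CPM, and that of 4 stele genes between 112 and 345 CPM. These markers thus differed between libraries of one genotype, and *bravo-2* replicate 1 stands apart from the other 5 by its near absence of root hair transcripts. BRAVO itself was at 13.4, 37.8 and 60.9 CPM in WT against 13.9, 10.3 and 11.8 CPM in *bravo-2*, a log2 fold change of -1.63 (unadjusted p = 0.0244 and adjusted p = 1.00 from edgeR), and WT replicate 1 lay within the range of the mutant. In such bulk libraries a lower level cannot be told apart from fewer cells of the expressing type.

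All 10 genes were expressed, and all 10 had a mean of at least 4 CPM in both genotypes. Per length, the most abundant were DDM1, with a mean over the 6 libraries of 55.6 TPM, VIM1 with 53.0 TPM and VIM3 with 30.4 TPM. CMT3, KYP, DRM2 and ROS1 followed at 17.8, 16.7, 14.1 and 11.96 TPM, and DME, MET1 and CMT2 were lowest at 7.22, 5.57 and 5.15 TPM. Neighbours in this order were not separated from each other. DDM1 was above VIM1 in 3 of the 6 libraries, KYP above DRM2 in 3, ROS1 above DME in 3 and MET1 above CMT2 in 3, and the clearest step, from VIM3 to CMT3, held in 5 of 6. MET1, the main CG methyltransferase, ranked between 8 and 10 in every library, while VIM1 and DDM1 were among the 3 highest in every one.

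**Figure D1:**
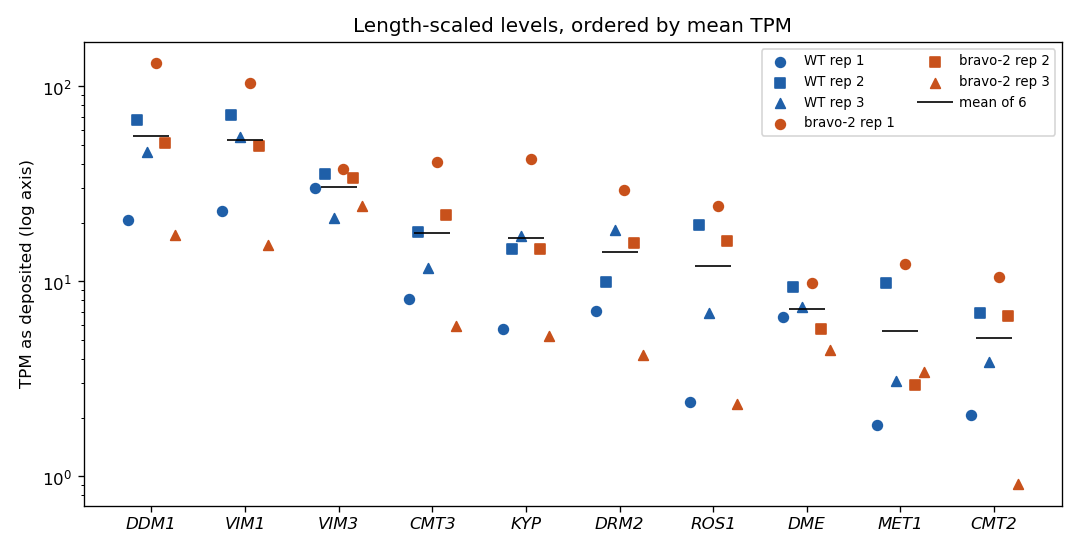
TPM as deposited (log axis) of the 10 genes in each of the 6 libraries, ordered from left to right by the mean of the 6 (black bars), with WT in blue, *bravo-2* in orange and one marker shape per replicate number. The values of every pair of neighbours overlap, and VIM3 has the narrowest spread, from 21.1 to 37.6 TPM.

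MET1 (AT5G49160; chromosome 5 from 19932114 to 19938470 of TAIR10.1, plus strand, 13 exons) copies CG methylation onto newly made strands. It measured 6.91, 31.1 and 11.01 CPM in WT (replicates 1 to 3) against 32.4, 9.67 and 14.6 CPM in *bravo-2* (replicates 1 to 3). One library of each genotype, WT replicate 2 and *bravo-2* replicate 1, was high, and the genotypes overlapped almost completely. The mean was 16.3 ± 12.9 CPM in WT (SD, n = 3) and 18.9 ± 11.98 CPM in *bravo-2* (SD, n = 3), and the log2 fold change, *bravo-2* over WT, was 0.21 with a 95% interval from -1.44 to 1.86. The lowest value rests on 84 counts, with an exact Poisson interval of 67.0 to 104 counts, so that the spread between libraries exceeds the counting error.

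VIM1 (AT1G57820; chromosome 1 from 21413981 to 21418115, minus strand) and VIM3 (AT5G39550; chromosome 5 from 15837178 to 15840678, minus strand) are related ubiquitin ligases that bind half-methylated CG sites ahead of MET1. VIM1 measured 42.8, 105 and 91.8 CPM in WT against 129, 77.0 and 30.7 CPM in *bravo-2*, so that both its highest and its lowest value were in the mutant. VIM3 measured 52.3, 48.6 and 32.6 CPM in WT against 43.3, 48.7 and 44.7 CPM in *bravo-2*. The paralogs differed in their spread, with a highest value 4.22 times the lowest for VIM1 and 1.60 times for VIM3. Only 5.79% of the genes tested had a smaller range than VIM3 on the TMM scale. The ratio of VIM1 to VIM3 in TPM was accordingly 0.756 in WT replicate 1 and 0.635 in *bravo-2* replicate 3 but between 1.46 and 2.78 in the other libraries. VIM3 had fractional counts in all 6 libraries, a sign that reads were shared with a similar gene, but RSEM's own posterior SD was at most 1.65 counts, against counts of 444 and more. The log2 fold changes were -0.02 for VIM1 (95% interval -1.45 to 1.42) and 0.03 for VIM3 (-0.82 to 0.89).

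DDM1 (AT5G66750; chromosome 5 from 26648897 to 26653191, plus strand, 16 exons), the remodeller that methylation of transposons depends on, measured 44.2, 114 and 88.7 CPM in WT against 187, 91.1 and 39.6 CPM in *bravo-2*. The values of the mutant enclosed those of WT on both sides. The log2 fold change was 0.36 (standard error 0.65).

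Among the genes of non-CG methylation, CMT3 (AT1G69770; chromosome 1 from 26248118 to 26253687, minus strand, 21 exons) measured 19.3, 33.98 and 25.0 CPM in WT against 64.9, 43.6 and 15.1 CPM in *bravo-2*. Both *bravo-2* replicates 1 and 2 were above every WT library and *bravo-2* replicate 3 was below every one. Its log2 fold change of 0.66 (standard error 0.57, 95% interval -0.68 to 1.99) was the highest among the 10 genes. KYP (AT5G13960; chromosome 5 from 4501362 to 4506250, plus strand), the histone methyltransferase whose mark CMT3 reads, measured 10.2, 21.0 and 27.5 CPM in WT against 50.4, 22.0 and 10.1 CPM in *bravo-2*, a log2 fold change of 0.49 (standard error 0.66). The end of KYP overlaps that of AT5G13970 on the opposite strand, and reads within that stretch could come from either gene, although RSEM gave KYP whole counts in all 6 libraries. CMT2 (AT4G19020; chromosome 4 from 10414428 to 10421265, plus strand), which acts on long transposons, measured 6.91, 18.0 and 11.5 CPM in WT against 23.0, 18.3 and 3.22 CPM in *bravo-2*, a log2 fold change of 0.29 (standard error 0.74). Its value in *bravo-2* replicate 3 rests on 34 counts (exact Poisson interval 23.6 to 47.5 counts).

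DRM2 (AT5G14620; chromosome 5 from 4715105 to 4718704, minus strand, 10 exons), the methyltransferase that sets new methylation, measured 12.6, 14.1 and 29.2 CPM in WT against 35.0, 23.3 and 8.05 CPM in *bravo-2*. WT replicate 3, and not WT replicate 2 as for MET1, was its highest WT library. The log2 fold change was 0.25 (standard error 0.63).

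ROS1 (AT2G36490; chromosome 2 from 15307907 to 15314807, minus strand, 21 exons) was among the most variable of the 10. It measured 9.13, 59.0 and 23.4 CPM in WT against 61.6, 51.1 and 9.57 CPM in *bravo-2*. The low libraries were WT replicate 1 and *bravo-2* replicate 3, one of each genotype, and the highest value was 6.74 times the lowest, a wider range than in 74.5% of the genes tested. The log2 fold change was 0.42 with a 95% interval from -1.55 to 2.39. The transcription of ROS1 is known to depend on methylation of its own promoter, which makes it fall when MET1 is lost. Here the ratio of ROS1 to MET1 in TPM was 1.31, 1.99 and 2.22 in WT replicates 1, 2 and 3 and 1.99, 5.50 and 0.688 in *bravo-2* replicates 1, 2 and 3, so the pair moved together in part only. In *bravo-2* replicate 2, ROS1 was high while MET1 was among its low values.

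DME (AT5G04560; chromosome 5 from 1309099 to 1318520, plus strand, 20 exons) was even across the libraries after TMM scaling, at 35.3, 39.8 and 35.5 CPM in WT against 35.1, 25.4 and 25.5 CPM in *bravo-2*. Its range of 1.56 times on that scale was smaller than that of all but 4.91% of the genes tested. Its values ran more widely on library totals, from 20.6 to 44.1 CPM, and in TPM, from 4.46 to 9.85 TPM. DME was the only one of the 10 genes whose genotypes did not overlap, and the margin was small, 35.3 CPM for the lowest WT library against 35.1 CPM for the highest *bravo-2* library. Among all genes tested, 3.67% did not overlap, 1.68% with higher and 1.99% with lower values in *bravo-2*. The mean was 36.9 ± 2.51 CPM in WT (SD, n = 3) and 28.7 ± 5.56 CPM in *bravo-2* (SD, n = 3), a log2 fold change of -0.36 (standard error 0.36, 95% interval -1.20 to 0.47). The exact permutation test gave p = 0.10 (two-sided), the smallest that 3 libraries against 3 allow. When libraries were scaled by their totals instead of TMM the groups overlapped and the exact permutation p was 0.50, and they overlapped in TPM too, where *bravo-2* replicate 1 was highest at 9.85 TPM.

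**Figure D2:**
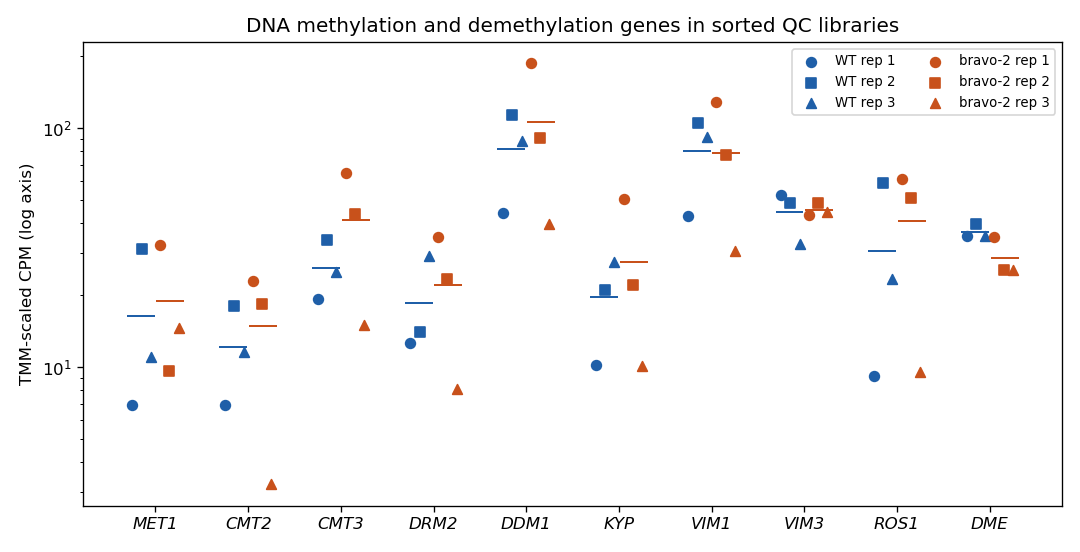
TMM-scaled CPM (log axis) of the 10 genes in the 6 libraries, with WT in blue, *bravo-2* in orange, one marker shape per replicate number and a short line at each genotype's mean. For 8 genes *bravo-2* replicate 1 is highest and WT replicate 1 or *bravo-2* replicate 3 is lowest, while VIM3 and DME stay within a 1.60-fold range.

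Over the 10 genes the genotypes could not be separated. None had an adjusted or an unadjusted p-value under 0.05 in edgeR's quasi-likelihood test, where 0 of the 15739 genes tested (0.0%) were called after adjustment and 125 (0.794%) before it. DESeq2 gave none of the 10 a p-value under 0.05 either. The lowest unadjusted p-value among the 10 was 0.286, for CMT3, with an adjusted p of 1.00 from edgeR for each gene. The exact permutation p was between 0.50 and 1.00 for the 9 genes whose groups overlapped. Of the 10 log2 fold changes 8 were above 0 and 2 below, with a median of 0.27, beside 54.3% above 0 and a median of 0.04 among all genes tested. That direction depended on single libraries. Without WT replicate 1 the median was 0.047, beside 0.0645 among all genes tested in that setting. Without *bravo-2* replicate 1, 8 of the 10 values were below 0 and the median was -0.27, and without *bravo-2* replicate 3 the median was 0.71, and CMT3 then had a log2 fold change of 1.06 and an unadjusted p of 0.0382 (adjusted p = 0.717 from edgeR), while without *bravo-2* replicate 1 its log2 fold change was 0.17. The intervals were wide, and for MET1, CMT2, DRM2, DDM1, KYP, VIM1 and ROS1 they reach a difference of more than 1 on the log2 scale in either direction.

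**Figure D3:**
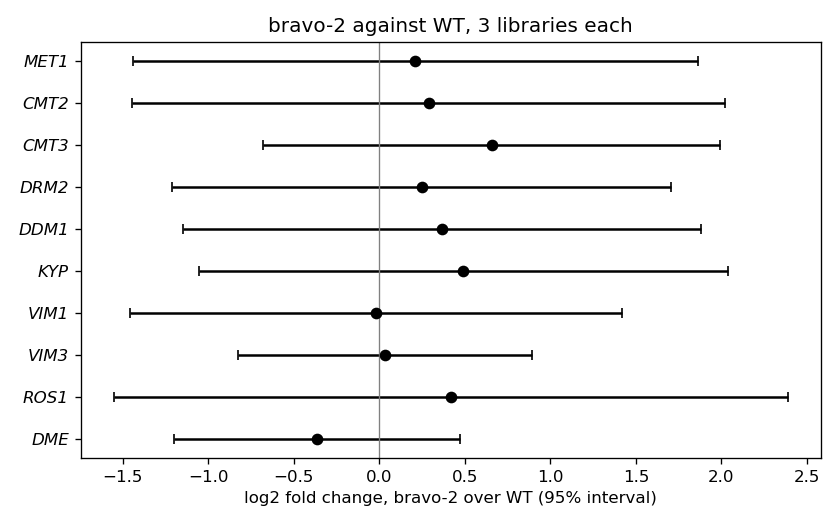
Log2 fold change of *bravo-2* over WT for each of the 10 genes (points) with the 95% interval from edgeR's quasi-likelihood fit (bars), 3 libraries per genotype. Every interval includes 0, and those of VIM3 and DME are the narrowest.

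The difference between libraries of one genotype was larger than that between genotypes, and it had a common order. For 8 of the 10 genes *bravo-2* replicate 1 was the highest of the 6 libraries, beside 31.8% of all genes tested, and for the same 8 the lowest was *bravo-2* replicate 3 (6 genes) or WT replicate 1, an order that 27.5% of all genes tested shared. The exceptions on the TMM scale were VIM3 and DME. In TPM these genes were also highest in *bravo-2* replicate 1, at 37.6 and 9.85 TPM. DME was then lowest in *bravo-2* replicate 3, at 4.46 TPM, and VIM3 in WT replicate 3, at 21.1 TPM. Because several of these enzymes act at replication, their levels were set beside 14 genes of DNA replication and chromatin assembly in S phase, among them the helicase subunits MCM2 and MCM5. Of the 14 genes 11 had an r above 0.8 with the mean of the list, beside 26.7% of all genes tested, FAS1 had 0.78, and the replication licensing genes CDT1A and CDC6, named after their values were seen, ran against it (r = -0.38 and -0.51). Each of the 14 genes is part of that mean, which raises its r, so these values are a description and no test of the list. The mean log2 level of the S phase genes was 4.22, 5.13 and 4.77 in WT replicates 1, 2 and 3 and 5.73, 5.35 and 4.20 in *bravo-2* replicates 1, 2 and 3, so the same libraries were at the ends of the scale. WOX5 and the markers of root hair, endodermis and stele also differed between the libraries at these ends. In *bravo-2* replicate 1 WOX5 was highest and root hair transcripts nearly absent, and in WT replicate 1 and *bravo-2* replicate 3 WOX5 was lowest and the summed root hair level among the highest, at 4790 and 3706 CPM. The summed stele level was 345 and 303 CPM in those same libraries, against 112 CPM in *bravo-2* replicate 1, and the summed endodermis level was 135 and 118 CPM against 11.9 CPM. WT replicate 3 broke this order, with WOX5 at 375 CPM beside summed root hair and endodermis levels of 3673 and 119 CPM. So did *bravo-2* replicate 2, with WOX5 at only 120 CPM beside an S phase mean of 5.35. Its summed root hair, endodermis and stele levels were 1386, 13.1 and 117 CPM. The summed root cap level did not follow this order either. The root cap sum was 159 and 72.0 CPM in WT replicate 1 and *bravo-2* replicate 3, against 102 CPM in *bravo-2* replicate 1. The part of these markers in the result was not tested.

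CMT3 followed the S phase genes most closely. Across the 6 libraries its Pearson r was 0.99 (exact permutation p = 0.00139, the smallest that 720 pairings can give; adjusted p = 0.0139 over the 10 genes) and its Spearman rho was 1.00 (exact permutation p = 0.00278; adjusted p = 0.0139). After subtraction of the S phase mean, the SD of the log2 level of CMT3 fell from 0.76 to 0.19. CMT2 had an r of 0.93 (exact permutation p = 0.00556; adjusted p = 0.0208) and a rho of 1.00 (exact permutation p = 0.00278; adjusted p = 0.0139). ROS1 and DDM1 had r of 0.96 and 0.95 (exact permutation p = 0.00833 and 0.00694; adjusted p = 0.0208 for both) and rho of 0.89 and 0.94 (exact permutation p = 0.0333 and 0.0167; adjusted p = 0.0833 and 0.0556). KYP and VIM1 had r of 0.90 and 0.89 (exact permutation p = 0.0208 and adjusted p = 0.0347 for both), with a rho of 0.83 for both (exact permutation p = 0.0583; adjusted p = 0.0833). Thus 6 of the 10 genes had an r above 0.8, beside 26.7% of all genes tested. The genes and the S phase list were chosen with earlier results of these data known. The p-values of r and rho therefore describe these 6 libraries and are no independent test.

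By Pearson r, the other 4 genes did not pass the adjusted threshold. By rho only CMT3 and CMT2 passed it, so this division of the genes holds for r alone. DRM2 had the same rho and adjusted p for rho as KYP and VIM1. DRM2 had an r of 0.78 (exact permutation p = 0.0833; adjusted p = 0.119) and a rho of 0.83 (exact permutation p = 0.0583; adjusted p = 0.0833). MET1 had an r of 0.61 (exact permutation p = 0.215; adjusted p = 0.269) and a rho of 0.43 (exact permutation p = 0.419; adjusted p = 0.524). It was low in *bravo-2* replicate 2, where the S phase mean was second highest. In *bravo-2* replicate 3, where the S phase mean was lowest, MET1 was above WT replicates 1 and 3. VIM3 had an r of -0.07 (exact permutation p = 0.932; adjusted p = 0.932) and a rho of -0.14 (exact permutation p = 0.803; adjusted p = 0.892), and DME an r of 0.18 (exact permutation p = 0.722; adjusted p = 0.803) and a rho of -0.09 (exact permutation p = 0.919; adjusted p = 0.919). When the 2 libraries farthest from the median S phase mean, *bravo-2* replicates 1 and 3, were left out, r over the other 4 libraries stayed at 0.98 for CMT3, 0.99 for CMT2, 0.97 for ROS1 and 0.87 for DDM1, and was 0.73 for KYP, 0.76 for VIM1, 0.53 for MET1, 0.41 for DRM2, -0.03 for VIM3 and -0.45 for DME. The relation of DRM2 therefore rests on those libraries. The 6 points share the makeup of the sorted cells, and genotype does not order them. The relation was computed on TMM-scaled levels only. In TPM DME was highest in *bravo-2* replicate 1 and lowest in *bravo-2* replicate 3, like CMT3. VIM3 was lowest in WT replicate 3 on both scales.

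**Figure D4:**
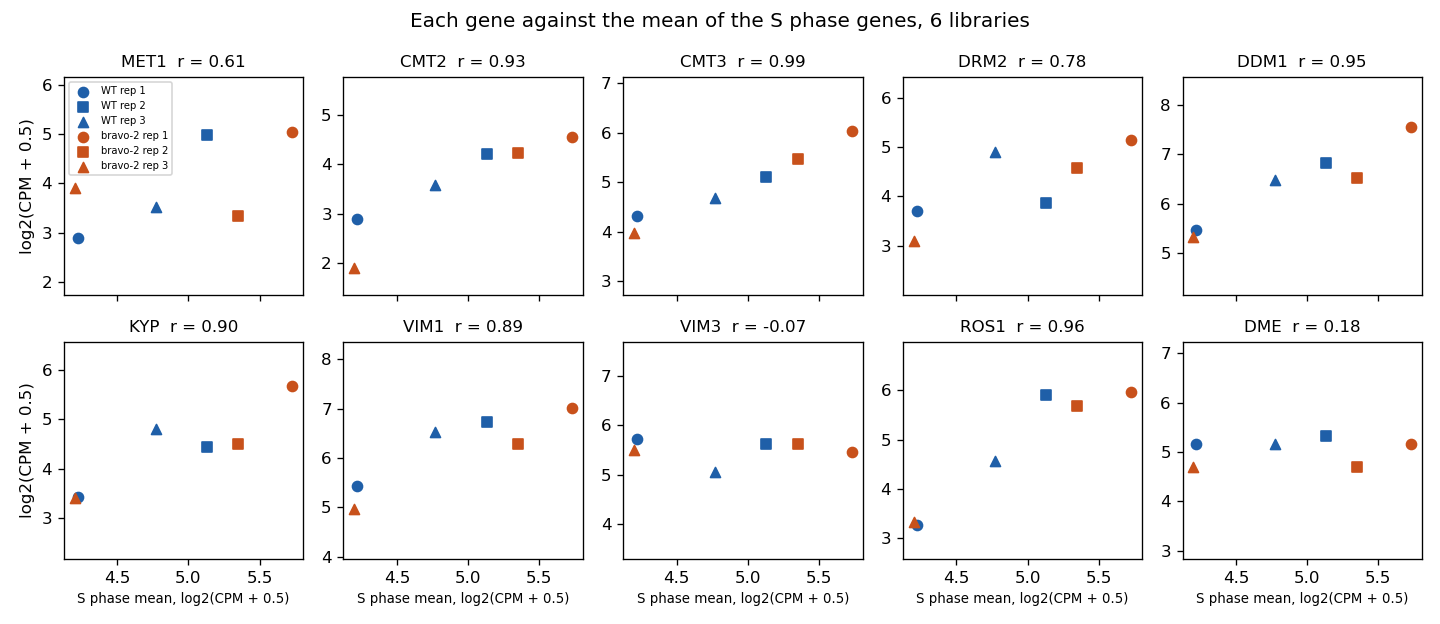
Each panel plots the log2(CPM + 0.5) of one gene against the mean log2(CPM + 0.5) of 14 S phase genes in the 6 libraries (WT blue, *bravo-2* orange, one marker shape per replicate number), with vertical axes of equal length. CMT3 rises along with the S phase mean (r = 0.99), while VIM3 and DME lie flat (r = -0.07 and 0.18).

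The promoters of all 10 genes and of the S phase list were read for the element of E2F factors, which activate genes at the entry into S phase. The 250 bases before the annotated start were searched on both strands for TTTCCCGC, TTTCGCGC, TTTGCCGC and TTTGGCGC. A match was found in 8 of the 14 S phase genes and in 1 of the 10 genes of DNA methylation, ROS1, beside 1.41% of the promoters of all 27443 protein-coding genes. The promoters of ROS1 and of CMT3, the gene closest to the S phase mean, are shown with any match in capitals, from RefSeq's TAIR10.1. That of ROS1 is chr2:15314808-15315057 on the minus strand, and its match begins 30 bases before the start. That of CMT3 is chr1:26253688-26253937 on the minus strand.
ROS1: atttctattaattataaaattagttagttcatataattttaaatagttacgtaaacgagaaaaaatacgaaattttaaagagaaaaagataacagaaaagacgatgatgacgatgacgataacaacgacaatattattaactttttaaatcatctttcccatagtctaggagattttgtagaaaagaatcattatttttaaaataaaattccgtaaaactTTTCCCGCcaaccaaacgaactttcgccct
CMT3: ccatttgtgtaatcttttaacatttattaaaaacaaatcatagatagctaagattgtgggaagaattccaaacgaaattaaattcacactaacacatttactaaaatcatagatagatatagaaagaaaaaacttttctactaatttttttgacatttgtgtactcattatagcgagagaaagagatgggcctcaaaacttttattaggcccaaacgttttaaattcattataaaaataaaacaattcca
The CMT3 window holds none of these letters, so the gene with the highest r and the gene with a match are not the same one. A match of letters is a description and not a sign of binding.

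Close relatives of the 10 genes were mostly weak or silent. Of 12 such genes 6 passed the expression filter, and MEE57, CMT1, DRM1 and DML3 had 0 counts in all 6 libraries, which allows up to 3 counts or between 0.208 and 0.273 CPM each. DRM3, a partner of DRM2 without its own activity, was the most abundant relative after length scaling, with 17.8, 34.4 and 32.8 CPM in WT against 63.1, 38.9 and 25.9 CPM in *bravo-2*. ORTHL, a relative of the VIM genes, measured 7.15, 17.4 and 27.2 CPM in WT against 30.1, 14.5 and 5.59 CPM in *bravo-2*, highest and lowest in the same libraries as VIM1. DML2, a demethylase related to ROS1, had 0, 60 and 72 counts in WT and 177, 101 and 16 counts in *bravo-2*, so that in WT replicate 1, where ROS1 was lowest, no DML2 read was counted. VIM2 and VIM4 shared reads, with fractional counts in 6 and 4 libraries, and their own values are uncertain. None of the 6 relatives tested passed an adjusted or unadjusted threshold of 0.05 in edgeR, and the median log2 fold change was 0.27, or -0.30 without *bravo-2* replicate 1 and -0.01 without WT replicate 1.

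Most genes listed for the pathway that guides DRM2 were expressed. Of 24 genes listed for RNA-directed DNA methylation 21 were paired by name, and the others were not examined. Of these 21 genes 20 passed the filter, and 0 of the 20 passed an adjusted or unadjusted threshold of 0.05 in edgeR. Their log2 fold changes were above 0 for 15 and below for 5, with a median of 0.22. The median was -0.46 without *bravo-2* replicate 1 and -0.04 without WT replicate 1. The most abundant after length scaling were AGO4, which carries the guiding small RNAs, with 105, 267 and 200 CPM in WT against 373, 205 and 92.9 CPM in *bravo-2*, and IDN2, which helps bind the scaffold transcript, with 45.6, 143 and 90.4 CPM in WT against 215, 119 and 41.3 CPM in *bravo-2*. Both were highest in *bravo-2* replicate 1 and lowest in *bravo-2* replicate 3, as DDM1 and CMT3 were. In 15 of the 20 genes *bravo-2* replicate 1 was highest, and 12 had an r above 0.8 with the S phase mean, beside 31.8% and 26.7% of all genes tested. A log2 fold change above 0 was found for 54.3% of all genes tested. AGO9, known from reproductive tissue, had 0 counts throughout.

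Of 13 genes listed as assisting demethylation or the repair that follows it, 10 were paired by name and the others were not examined. All 10 were tested and none passed an adjusted or unadjusted threshold of 0.05 in edgeR. Their log2 fold changes were above 0 for 8 and below for 2, beside 54.3% above 0 among all genes tested. The median was 0.26, and it was -0.24 without *bravo-2* replicate 1. ROS3, an RNA-binding protein needed by ROS1, measured 25.7, 79.8 and 74.4 CPM in WT against 150, 90.0 and 31.5 CPM in *bravo-2*. SPT16, a histone chaperone that works with DME, measured 112, 185 and 132 CPM in WT against 283, 163 and 123 CPM in *bravo-2*, a range of 2.52 times beside 1.56 times for DME. The enzymes that supply and recycle the methyl donor had another order of libraries, none of the 4 being highest in *bravo-2* replicate 1. SAHH1, which removes the inhibitory product of methylation, measured 3804, 3818 and 3808 CPM in WT against 3538, 5586 and 3223 CPM in *bravo-2*. SAM1, which makes the donor, measured 1472, 1407 and 1370 CPM in WT against 933, 1082 and 1343 CPM in *bravo-2*, groups that did not overlap (log2 fold change -0.34, standard error 0.53; exact permutation p = 0.10, the smallest possible). Lower values in *bravo-2* without overlap were found for 1.99% of all genes tested. The median log2 fold change of the 4 supply genes was -0.11, and it was 0.19 without WT replicate 1, 0.17 without *bravo-2* replicate 1 and -0.31 without *bravo-2* replicate 3. As a description over the 6 libraries, r with the S phase mean was 0.40 for SAHH1, -0.77 for SAHH2, -0.82 for SAM1 and -0.75 for SAM2, of which SAHH2 and SAM2 are named after their values were seen.

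The S phase genes themselves gave 14 log2 fold changes above 0 with a median of 0.50, beside 54.3% above 0 and a median of 0.04 among all genes tested. None of the 14 had an adjusted or unadjusted p under 0.05 in edgeR. In the same comparison the values of the other cell markers lay below 0, for 6 of 6 root hair genes (median -0.97), 4 of 4 root cap genes (median -0.74), 3 of 3 endodermis genes (median -0.88) and both stele genes tested (median -0.51), none past an adjusted or unadjusted threshold of 0.05 in edgeR, and their part in the result was not tested. With libraries left out the S phase median ran from 0.11 (without *bravo-2* replicate 1) to 1.01 (without WT replicate 2). MCM2 measured 54.3, 138 and 111 CPM in WT against 296, 170 and 60.6 CPM in *bravo-2*, and MCM5 41.7, 128 and 82.5 CPM in WT against 226, 139 and 21.3 CPM in *bravo-2*. FAS1, a subunit of the chromatin assembly factor that deposits histones at replication, was the only gene of this list whose groups did not overlap, with 7.81, 12.1 and 11.1 CPM in WT against 24.5, 21.9 and 14.3 CPM in *bravo-2* (log2 fold change 0.97, standard error 0.44; adjusted p = 1.00 from edgeR; unadjusted p = 0.059; exact permutation p = 0.10). Among all genes tested 3.67% did not overlap, 1.68% with higher values in *bravo-2*.

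As a readout of methylation itself the data hold only transcripts, so 6 loci known to be silenced by DNA methylation or activated by DME were examined. All were below the filter. FWA, silent in methylated seedlings, had 0, 1 and 4 counts in WT and 3, 3 and 3 counts in *bravo-2*. SDC, silenced by non-CG methylation, had 4, 0 and 9 counts in WT and 0, 3 and 0 counts in *bravo-2*. QQS, a small gene whose activity varies with the methylation of nearby repeats, had 3, 15 and 93 counts in WT and 0, 0 and 1 count in *bravo-2*, and MEA, a target of DME in the central cell, had 0, 1 and 2 counts in WT and 5, 10 and 11 counts in *bravo-2*. The groups of these last genes did not overlap, but at such counts the *bravo-2* values of QQS and the WT values of MEA are not above the smallest number taken as shown, and neither gene was tested. Among all genes tested 3.67% did not overlap, and no such share was computed for genes below the filter. FIS2 had between 6 and 35 counts and PHE1 between 0 and 35 counts, with the highest value of each in *bravo-2* replicate 3.

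The genes whose log2 levels over the 6 libraries were most like those of MET1 were AT5G22700 (r = 0.99), CP31B (r = 0.99), AT3G59150 (r = 0.98), KDTA (r = 0.98) and AT1G09680 (r = 0.98). Those most like ROS1 were AT5G03870 (r = 1.00), BAS (r = 0.99), AT5G13980 (r = 0.99), AT3G04490 (r = 0.99) and AT2G36370 (r = 0.99). No other of the 10 genes stood in either list. An r above 0.9 was reached by 1537 of the other genes tested with ROS1 but by 106 with MET1, so that the pattern of ROS1 over these libraries was common and that of MET1 was rarer.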

How the data were processed

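RNA-seq was analysed in 6 libraries of sorted QC cells, 3 WT and 3 *bravo-2*. The authors removed adaptors with cutadapt, mapped reads with STAR to TAIR10 and ran RSEM on Araport11 transcripts. They deposited per gene an estimated count (expected count, not normalized), a TPM, an effective length and a posterior SD of the count, which is a score of how surely RSEM divided shared reads. Versions and settings are not given in the sources used here, and RSEM splits reads between similar genes.

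Estimated counts were rounded. Of 37336 genes, the 15739 whose average reached 4 CPM in either genotype were scaled with TMM and compared with edgeR's quasi-likelihood test, genotype its sole term, at 0.05 after adjusting by Benjamini-Hochberg across every gene fitted. Single genes were compared with log2(CPM + 0.5) values in an exact two-sided permutation test over libraries, which cannot go below p = 0.10. Names came from RefSeq's table of TAIR10.1, in which 37051 identifiers were found, and list entries whose name it does not pair with the identifier were left out. Kept were 12 of 14 relatives, 21 of 24 genes of RNA-directed DNA methylation and 10 of 13 demethylation partners. Of the methyl supply genes and of the stele markers 4 of 5 each were kept. The genes and lists were chosen with earlier results of these data known. Named from each list were the 2 genes highest in mean TPM and any gene with an unadjusted p under 0.05 or without overlap, and the 5 genes most like MET1 and ROS1. Nothing in the labels says that replicates came from separate plantings, so p-values measure the spread between these libraries. Intervals and floors cover counting error only. The authors treated cell sorting as a batch, but the labels do not give the sort of each library, so sort and genotype cannot be told apart here, and NOISeq, ARSyN and NOISeqBIO were not run. The test was checked on simulated data. Alternatives were upper quartile scaling, DESeq2, other count filters, limma, a replicate block, removal of the first residual component and leaving out each library. Fits used edgeR 4.0.16, limma 3.58.1 and DESeq2 1.42.0 under R 4.3.3. Values and plots were made with scipy 1.17.1, numpy 2.4.6, matplotlib 3.10.9 and pandas 2.3.3 under Python 3.11.15.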

Additional observations from a re-analysis of the deposited data

How the results depend on the processing

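None of the 10 genes passed an adjusted threshold of 0.05 in any of the 13 alternatives, but directions were not stable, and 15 of 130 alternative log2 fold changes changed sign. Without *bravo-2* replicate 1 they were -0.44 for MET1, -0.17 for CMT2, -0.25 for DRM2, -0.34 for DDM1, -0.29 for KYP and -0.0099 for ROS1. Without WT replicate 1 MET1 was at -0.12. VIM1 turned positive with upper quartile scaling (0.091) and without WT replicate 2, WT replicate 3 or *bravo-2* replicate 3 (0.24, 0.12 and 0.38), and VIM3 turned negative without WT replicate 3 or *bravo-2* replicate 2 (-0.14 and -0.02). CMT2 was at -0.012 with the replicate number as a block and at -0.018 after removal of the first residual component. With libraries left out the values reached 1.08 for MET1, 0.75 for DRM2, 0.77 for DDM1, 0.90 for KYP, 0.20 for VIM3 and 1.33 for ROS1 at the highest, and -0.57 for VIM1 at the lowest. CMT3 kept a positive sign, from 0.17 without *bravo-2* replicate 1 to 1.06 without *bravo-2* replicate 3, and DME a negative one, from -0.54 to -0.28. The number of the 10 genes below 0 was 1 with upper quartile scaling and ran from 1 to 8 with libraries left out, and the median of the 10 ran from -0.27 to 0.71. Relative to 0 genes past the adjusted threshold in edgeR, DESeq2 gave 13, a fit of all genes with a count 1 and the component removal 492, where 125, 195, 325 and 2915 genes respectively had an unadjusted p under 0.05, the last with no allowance for the component taken out. With libraries left out the number at an unadjusted p under 0.05 ran from 75 to 873. With the replicate block 0 genes were called after adjustment and 52 before it. Same-numbered libraries did not deviate together (correlations of -0.68, -0.11 and -0.39 across genes). The labels do not say whether they were prepared together. Deviations from a mean of 3 libraries of differing cell makeup cannot settle it. The block changed no call among the 10 genes. The r of DRM2 with the S phase mean went from 0.78 to 0.41 and that of DME from 0.18 to -0.45 without the 2 libraries farthest from the median. The order of levels was the same with CPM per length in place of TPM. Without *bravo-2* replicate 1 the medians of the relatives, RNA-directed methylation and demethylation lists were -0.30, -0.46 and -0.24, and that of methyl supply ran from -0.31 to 0.19 with libraries left out. The causes were not tested.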
